A study of Mus musculus with 15 samples.

Results

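Skeletal muscle precursor pixels were the tissue pixels of 6 mouse embryo sections that held at least 2 summed counts of Myog, Myod1, Myf5 and Tmem8c. A pixel is 1 square of a section whose transcripts share 1 barcode pair, and it can hold several cells or parts of cells. It was taken as tissue when its total count reached 0.1 of the 95th percentile of its section. This rule found 83 precursor pixels among 7270 tissue pixels (1.14%), and 73 of the 83 lay in the single section of an embryonic day 12 (E12) embryo. Since the 4 genes chose the pixels, their values are given as a description.

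The sections came from whole mouse embryos that had been frozen fresh. The sections fell into 3 groups, with no strain, sex or treatment given in the labels: embryonic day 10 (E10) at a pixel width of 50 µm (3 sections), embryonic day 11 (E11) at 25 µm (2 sections), and E12 at 50 µm (1 section). The labels do not say whether sections of a group came from different embryos, so tests across sections measure only the spread between these sections. E10 and E12 share a width of 50 µm, whereas stage and width cannot be told apart for E11. The 6 sections held 5066401 to 11348089 counts in tissue.

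Skeletal muscle of the trunk and limbs forms from the somites, whose dermomyotome supplies progenitors that express Pax3 and Pax7. The basic helix-loop-helix factors Myf5 and MyoD (Myod1) commit these cells to the muscle fate, and myogenin (Myog) drives their differentiation. Differentiating myoblasts leave the cell cycle, fuse through the membrane protein myomaker and its partner myomixer, and assemble embryonic sarcomeres. Tmem8c is the older symbol of the myomaker gene, now Mymk. In GENCODE M21 on build GRCm38, Myog lies on chromosome 1 at 134289989 to 134292548 (plus strand), Myod1 on chromosome 7 at 46376474 to 46379099 (plus strand), Myf5 on chromosome 10 at 107482908 to 107486134 (minus strand) and Mymk on chromosome 2 at 27061636 to 27072179 (minus strand).

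These factors bind E-boxes, the 6-base motif CANNTG, and the stretch just upstream of 3 muscle genes is printed here because their transcripts are followed below. The genes are Myog, Mylpf (the fast skeletal regulatory myosin light chain) and Chrna1 (the muscle acetylcholine receptor alpha subunit). Each run is the 250 bases before the RefSeq transcript start, 5′ to 3′ on the gene's strand (GRCm38.p6), with every CANNTG in capitals. The windows are chr1:134289754-134290003 on the plus strand for Myog, chr7:127211358-127211607 on the plus strand for Mylpf and chr2:73580339-73580588 on the minus strand for Chrna1.
Myog: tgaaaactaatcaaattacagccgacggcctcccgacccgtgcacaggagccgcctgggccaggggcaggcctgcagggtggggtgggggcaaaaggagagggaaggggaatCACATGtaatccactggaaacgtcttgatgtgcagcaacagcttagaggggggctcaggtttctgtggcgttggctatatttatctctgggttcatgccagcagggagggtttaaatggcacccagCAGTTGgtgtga
Mylpf: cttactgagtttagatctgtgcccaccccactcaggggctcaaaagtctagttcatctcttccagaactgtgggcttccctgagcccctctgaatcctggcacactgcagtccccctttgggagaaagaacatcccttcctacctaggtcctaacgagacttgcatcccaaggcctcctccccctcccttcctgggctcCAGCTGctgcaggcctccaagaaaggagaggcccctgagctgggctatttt
Chrna1: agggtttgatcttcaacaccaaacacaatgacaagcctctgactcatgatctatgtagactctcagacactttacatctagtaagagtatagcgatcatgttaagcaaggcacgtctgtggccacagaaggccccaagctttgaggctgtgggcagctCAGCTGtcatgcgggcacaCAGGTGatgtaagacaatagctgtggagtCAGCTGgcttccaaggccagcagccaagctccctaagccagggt

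The Myog window held 2 CANNTG motifs, the Mylpf window 1 and the Chrna1 window 3. CANNTG reads as the same motif on both strands, as does its form CAGCTG, which occurred once upstream of Mylpf, in 2 places upstream of Chrna1 and not in the Myog window. Of 27025 genes with a RefSeq promoter, with 1 promoter of the same length taken for each, 66.0% held a CANNTG and 12.8% a CAGCTG. A match is a description of the letters and not a bound site.

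Precursor pixels were found in 5 of the 6 sections. E12 held 73 in 1535 tissue pixels, a share of 4.76% (exact binomial 95% interval 3.75% to 5.94%, which covers counting error only). The E11 sections held 4 of 1704 and 2 of 1504 pixels. Among the E10 sections, replicate 1 held 3 of 859, replicate 3 held 1 of 839 and replicate 2 held 0 of 829, where a count of 0 allows a share of up to 0.362%. E12 thus had the highest share although its pixels were not the deepest: the median total of its other tissue pixels was 3501 counts, against 8239 to 11284 in the E10 sections.

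Depth moved with the share within E12, where the median total was 5154 counts in precursor pixels and 3501 in the others. Pixels with at least 2000 counts were thinned to that number, which left out 287 of 1535 tissue pixels in E12, 639 of 1704 and 242 of 1504 in the E11 sections and 0 at E10. Over the remaining pixels the expected share was 1.67% in E12, 0.113% and 0.0210% in the E11 sections, and 0.00868%, 0.0% and 0.00709% in the 3 E10 sections. The shares at E10 and E11 stand for only 1.20 and 0.265 expected pixels at E11 and 0.0746, 0.0 and 0.0595 at E10, too few to order these sections. A pixel of 25 µm covers less tissue than one of 50 µm, so shares at E11 are not on the same area as the others. In the E12 pixels with the top 10% of liver transcripts, used as a tissue that should lack these genes, 5 of 154 held any count of the 4 genes (3.25%, median total 5266) against 226 of 1381 elsewhere (16.4%, median total 3387), and none of the 154 passed the rule.

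The 4 genes contributed unequally. In the tissue pixels of E12, Tmem8c had 139 counts, Myog 118, Myod1 83 and Myf5 5, of which the precursor pixels held 78, 68, 37 and 4. Tmem8c, the fusion gene, was listed with no count in the tissue of the E10 sections, while the E11 sections had 8 and 5 counts. At E10, Myod1 had 9, 0 and 2 counts in replicates 1, 2 and 3, Myf5 had 3, 0 and 5, and Myog had 4, 3 and 2. The precursor pixels of E12 were thus chosen mostly by the differentiation and fusion genes. The few of E10 were chosen mostly by the 2 determination genes, but 1 pixel of replicate 1 passed with 1 count each of Myog and Myod1.

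Most precursor pixels of E12 held more than 1 of the genes, which the rule itself favours by asking for at least 2 summed counts. Of the 73, 18 held counts of 1 gene, 48 of 2 and 7 of 3. The commonest pair was Myog with Tmem8c, in 23 pixels with neither of the other genes. Over all tissue pixels, 30 of the 100 pixels with Myog also held Tmem8c (30.0%), against 5.64% of pixels without Myog. Myod1 was found in 20 of the 100 pixels with Myog (20.0%) and in 3.97% of those without. The part of depth in these shares was not tested.

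**Figure D1:**
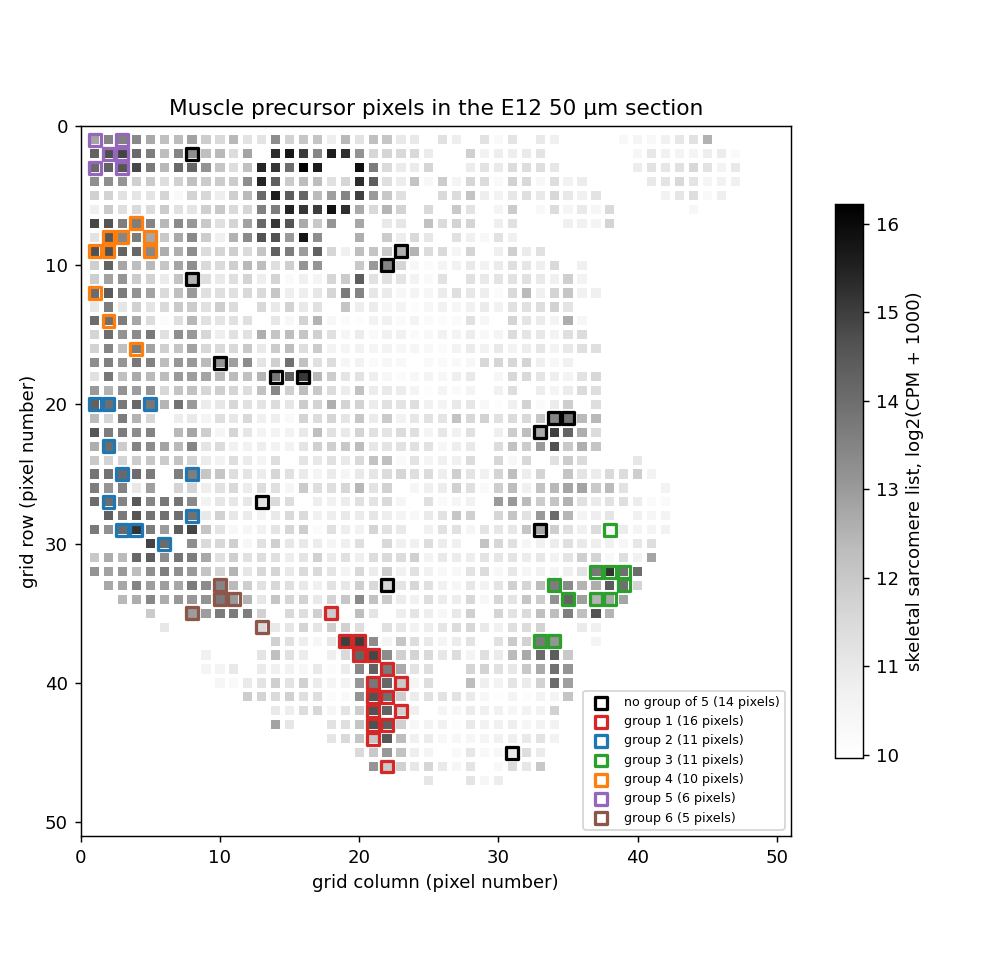
Map of the E12 50 µm section, with grid column and grid row as axes and each tissue pixel as a square shaded by the summed level of 28 skeletal sarcomere genes, as log2(CPM + 1000), where CPM is counts per 1000000 counts. Outlined squares are the 73 precursor pixels, coloured by the group of linked pixels they belong to, and 59 of them fall in 6 groups of at least 5 pixels in separate regions of the grid.

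The precursor pixels of E12 were gathered in patches. Of the 73, 38 shared an edge with another precursor pixel (52.1%), while 182 of the 1462 other tissue pixels touched one (12.4%). Linking pixels at most 4 steps apart, a distance chosen after the data were seen, gave 16 groups, of which 6 had at least 5 pixels and held 59 of the 73. The map of the E12 section shows the 6 groups of 16, 11, 11, 10, 6 and 5 pixels in separate regions of the grid. The few at earlier stages lay together as well: 3 of 4 and 2 of 2 at E11, and 2 of 3 in E10 replicate 1, had such a neighbour.

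The transcripts that set the E12 precursor pixels apart from other tissue were those of the contractile apparatus. As there is 1 section, these values have no replicate check, and a gene was described as different when it was at least 2-fold higher or lower in summed CPM with at least 50 counts in the section. By this measure 395 of 11259 genes were higher (3.51%) and 944 were lower (8.38%). The measure takes no account of counting error, so these totals include genes whose counting interval covers 1. Cdh1, at 1 and 82 counts (0.199-fold, 0.00499 to 1.14), and Eya2, at 8 and 56 (2.34-fold, 0.962 to 4.93), are such genes. Of the 28 listed skeletal sarcomere genes, 26 had 50 counts, 25 of these were at least 2-fold higher and none was 2-fold lower. Their median fold was 5.30, against 1.00 for all genes. Summed over the list, the level was 13922 CPM in precursor pixels and 3206 CPM in the others.

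Individual pixels overlapped for this list. The lowest, median and highest levels were 250, 12714 and 36196 CPM in the 73 precursor pixels and 0, 1585 and 75381 CPM in the 1462 others. The median of the others was exceeded in 70 of the 73 precursor pixels, and 88 of the others (6.02%) exceeded the precursor median. Across the threshold of the rule, the level was 2810 CPM in the 1304 pixels with no count of the 4 genes, 6324 CPM in the 158 pixels with 1, just outside, 11404 CPM in the 48 with 2, just inside, 16297 CPM in the 14 with 3, and 20469 CPM in the 11 with at least 4.

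Among genes of the thin filament and its partners, Tnnc2 (the calcium-binding troponin subunit) was at 296 CPM in precursor pixels and 32.7 CPM in the others, 9.08-fold higher (95% counting interval 7.13 to 11.5). Neb, whose giant protein nebulin runs along the thin filament, was at 766 and 95.5 CPM (8.02-fold, 6.94 to 9.26). Klhl41, a muscle kelch protein that stabilizes nebulin, was at 149 and 16.3 CPM (9.16-fold, 6.48 to 12.8). These 3 genes were among the 4 with the largest folds of the sarcomere list, the other being Myl1, an essential myosin light chain, at 310 and 34.9 CPM (8.86-fold, 7.01 to 11.2).

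In the thick filament, Myh3, the embryonic skeletal myosin heavy chain, was at 1140 CPM and 151 CPM (7.56-fold, 6.72 to 8.48). Mylpf, whose upstream sequence is printed above, was at 675 and 89.6 CPM (7.54-fold, 6.47 to 8.76). The alpha actin of embryonic muscle, Actc1, was 5.05-fold higher (4.64 to 5.50) and titin (Ttn) 4.44-fold higher (4.17 to 4.74). Tpm1, a tropomyosin made in many cell types, was the exception below 2-fold at 1.67 (1.48 to 1.87). Ckm, the creatine kinase of mature muscle, had no count in the precursor pixels and 6 in the others.

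**Figure D2:**
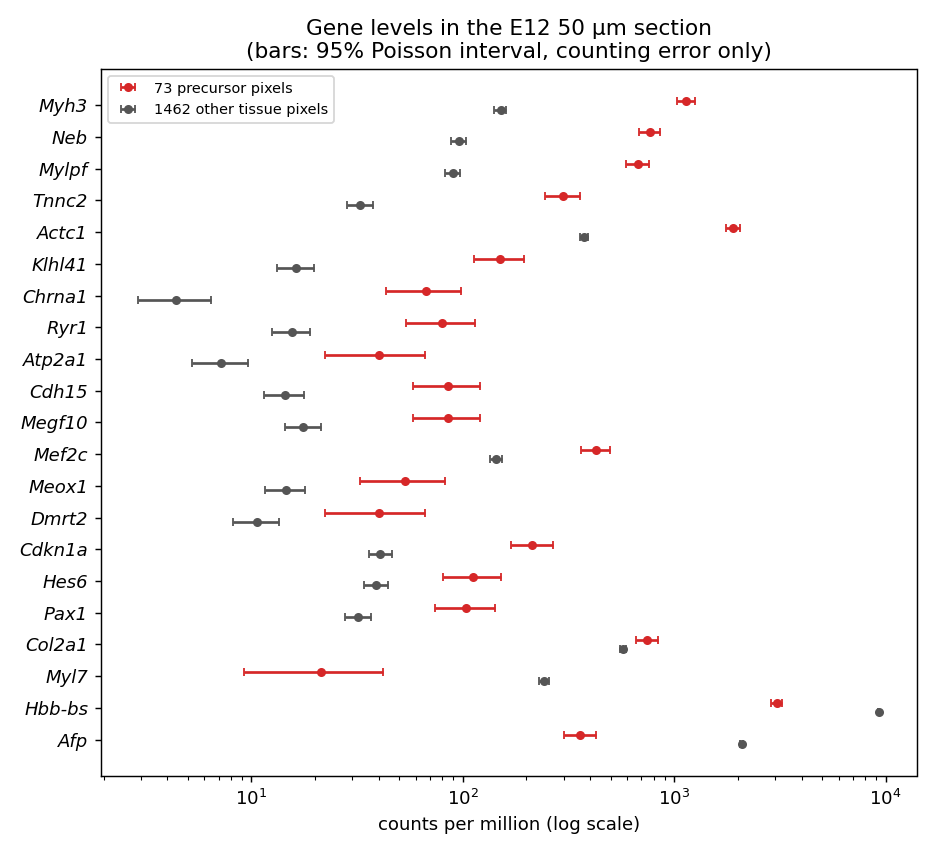
Levels of 21 genes in the E12 50 µm section in CPM (log axis), summed over the 73 precursor pixels (red) and the 1462 other tissue pixels (grey), with 95% Poisson intervals that cover counting error only. Sarcomere, synapse and myoblast genes lie to the right in the precursor pixels, while Myl7, Hbb-bs and Afp lie to the right in the others.

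Genes of the nerve-muscle synapse and of calcium release had low counts but were also higher in E12 precursor pixels. Of 19 listed genes 8 had 50 counts, and 6 of those were at least 2-fold higher, with a median of 2.71. Chrna1 had 25 counts in precursor pixels and 27 in all others, 66.7 against 4.41 CPM, or 15.1-fold higher (8.43 to 27.1). The calcium release channel gene Ryr1 was 5.16-fold higher (3.31 to 7.86) and the calcium pump gene Atp2a1 5.57-fold higher (2.88 to 10.2). Among genes under 50 counts, Musk, the receptor kinase that gathers acetylcholine receptors, had 6 and 7 counts, and Rapsn, which anchors them, had 11 and 29.

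Myoblast surface and fusion genes were higher in part. Of the 13 with 50 counts, 5 were at least 2-fold higher and none 2-fold lower. Cdh15, the cadherin of myoblasts, was at 85.4 and 14.4 CPM (5.95-fold, 3.84 to 9.004), and Megf10, a receptor of myoblasts and satellite cells, at 85.4 and 17.6 CPM (4.85-fold, 3.16 to 7.25). Vgll2, a muscle cofactor of TEAD transcription factors, was 5.45-fold higher (3.16 to 9.06). Gm7325, now Mymx, which encodes myomixer, had 12 and 32 counts, 6.13-fold higher (2.88 to 12.2). Widely expressed adhesion genes of the list differed little, such as Ncam1 at 1.07-fold (0.888 to 1.27) and Cdh2 at 1.06-fold (0.773 to 1.42).

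Of the 11 determination and differentiation factors with 50 counts, 4 were at least 2-fold higher: Mef2c, which acts with the myogenic factors, at 424 and 143 CPM (2.96-fold, 2.49 to 3.51), Msc, Eya2 and Six4. Myf6, the remaining member of the MyoD family, had 1 count in the precursor pixels and 1 in the others. Progenitor genes were mixed. Of the 7 with 50 counts, 2 were at least 2-fold higher and 2 at least 2-fold lower, with a median of 0.876. The higher 2 were the somite regulators Dmrt2, at 3.77-fold (2.00 to 6.69), and Meox1, at 3.67-fold (2.14 to 6.02). The lower 2 were Gab1, with 4 and 187 counts (fold interval 0.0943 to 0.911), and Pax3, with 2 and 85 counts (0.385-fold, 0.0459 to 1.43). Pax7, under 50 counts in the section, had 8 and 33 counts (3.96-fold, 1.58 to 8.75). Lbx1 and Met, which mark migrating limb progenitors, had 1 and 6 counts in precursor pixels.

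Cell cycle genes differed in 1 member. Cdkn1a, which encodes the cyclin-dependent kinase inhibitor p21, was at 214 CPM in precursor pixels and 40.8 CPM in the others (5.23-fold, 4.02 to 6.76). The other 14 genes of the list stayed within 2-fold, among them the proliferation markers Mki67 at 0.778-fold (0.676 to 0.892) and Top2a at 1.00-fold (0.894 to 1.12). Outside the lists, the largest fold was that of Klhl40, a nebulin-stabilizing relative of Klhl41, with 35 and 42 counts (13.6-fold, 8.45 to 21.9). It was followed by Col19a1 (10.3-fold, 6.10 to 17.0), Fitm1 (8.35-fold, 4.88 to 13.9) and Hfe2, which encodes the iron regulator hemojuvelin (7.99-fold, 4.57 to 13.6).

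**Figure D3:**
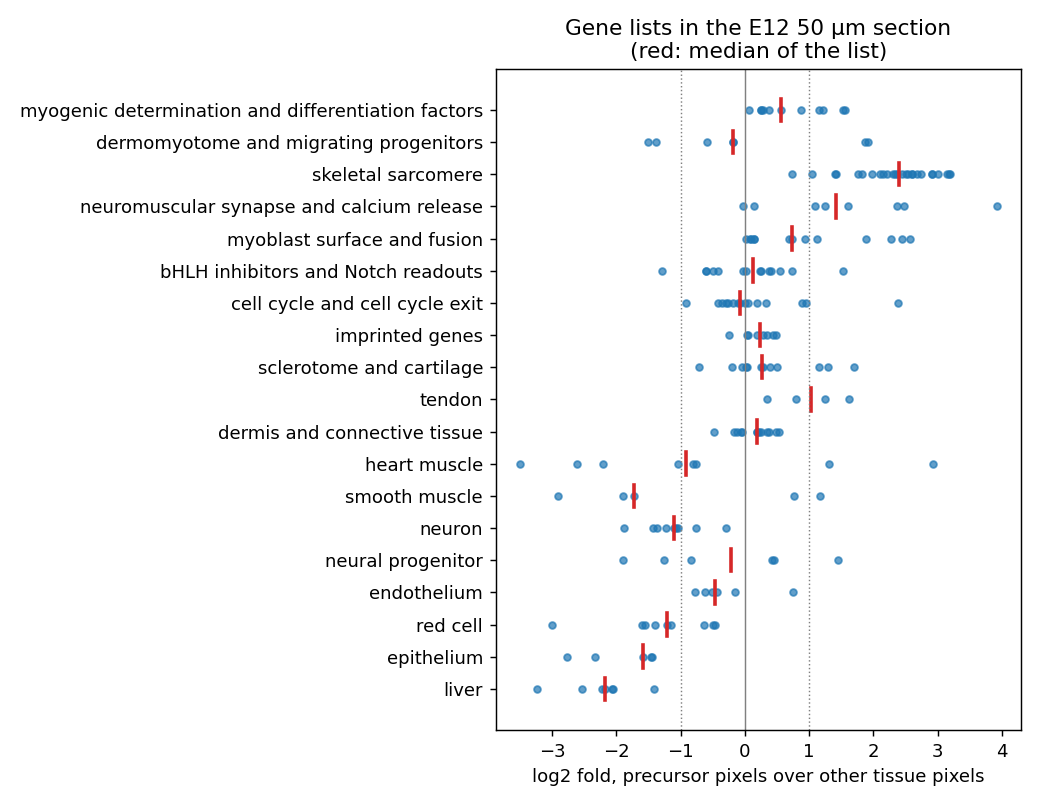
Log2 fold of each gene with at least 50 counts in the E12 50 µm section, precursor pixels over other tissue pixels, by gene list (blue points, red bars for list medians, dotted lines at 2-fold). The sarcomere list has the highest median (5.30-fold) and the liver list the lowest (0.221-fold).

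Markers of other tissues in the E12 precursor pixels were counted the same way, and their part in the results above was not tested. All 7 liver genes and all 5 epithelial genes with 50 counts were at least 2-fold lower, as were 7 of 9 neuronal and 6 of 9 red cell genes. Over all genes with 50 counts the share was 8.38%. The epithelial list had only 12 counts in the precursor pixels (0.258-fold, 0.133 to 0.454). Among its genes, the counting intervals of Cdh1, Krt5 and Epcam covered 1. Liver transcripts summed to 745 CPM against 3738 CPM and red cell transcripts to 44201 CPM against 92371 CPM. The heart list summed to 331 CPM against 530 CPM, with 6 of its 13 genes at no count, among them Nkx2-5, Myl2 and Tbx20. Of its 124 counts 87 were Sln, which encodes sarcolipin and was 7.61-fold higher (5.83 to 9.86), while the atrial light chain Myl7 had 8 counts (21.4 against 243 CPM). The smooth muscle list summed to 601 against 382 CPM: of its 5 genes, Acta2, an actin also made in other contractile cells, was 2.26-fold higher (1.94 to 2.63), and 3 were at least 2-fold lower, among them Myh11 and Myocd, the latter with no count.

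Connective tissue genes stood near the level of other tissue: all 13 with 50 counts lay within 2-fold. The sclerotome gene Pax1 was 3.25-fold higher (2.25 to 4.61) and the tendon regulator Scx 3.07-fold higher (1.51 to 5.73), whereas the cartilage collagen Col2a1 was at 1.31-fold (1.15 to 1.48). Nes, an intermediate filament gene of neural progenitors and of developing muscle, was at 633 and 232 CPM (2.73-fold, 2.37 to 3.13). Neural Pax6 and Fabp7 had 1 and 11 counts in the precursor pixels.

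The 6 groups of linked precursor pixels at E12 shared the muscle genes and differed in positional ones. The sarcomere list was at 16144, 17163, 13010, 15085, 18438 and 9409 CPM in groups 1 to 6. Hox genes of paralog groups 9 to 13, which are expressed in the posterior body, summed to 801 CPM in group 1 (80 counts, interval 635 to 997) and 312 CPM in group 3 (22 counts, 196 to 473). They summed to 28.0 CPM (1 count) in group 2, 24.4 CPM (1 count) in group 4, 0.0 CPM in group 5 and 148 CPM (3 counts) in group 6. The pixels that touch each group had a like order, at 717, 81.0, 478, 54.0, 0.0 and 136 CPM. The grouping did not use these genes, but it was made after the data were seen, and 1 section gives no replicate for any group.

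Group 1 also held 32 of the 39 precursor counts of Pax1 and 24 counts of Zic1, a regulator of the dorsal somite and neural tube. Groups 2, 4 and 6 had none of either gene. Msc, a basic helix-loop-helix repressor of myogenic genes, had 5 of its 9 counts in group 3. Pax3 had no count in any of the 6 groups. Chrna1 had 11 counts in group 1, 5 in each of groups 3 and 5, 1 in group 4 and none in groups 2 and 6, where the totals were 35658 and 20300 counts.

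At E11 the 6 precursor pixels had a higher share of sarcomere transcripts than those of E12. The list was at 36541 CPM against 3422 CPM in replicate 1 (10.7-fold, 9.86 to 11.5) and at 30735 CPM against 3330 CPM in replicate 2 (9.23-fold, 8.50 to 10.0), compared with 4.34-fold (4.21 to 4.48) at E12. The single pixels ranged from 12211 to 61882 CPM. They numbered 4 in replicate 1 and 2 in replicate 2 and were 25 µm wide, against 73 pixels of 50 µm at E12. Stage and pixel width cannot be told apart in this comparison. Myh3 was at 3660 and 2817 CPM in the precursor pixels of the 2 sections and at 11.7 and 9.1 CPM in the others. Heart markers were low there: Myl7 had 0 counts in replicate 1 and 1 count in replicate 2, against 604 and 442 CPM in the other pixels. The smooth muscle list was higher in the same pixels, at 1520 against 322 CPM in replicate 1 (4.72-fold, 3.10 to 6.89) and 2305 against 352 CPM in replicate 2 (6.55-fold, 4.76 to 8.79), and its part in the result was not tested.

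The 4 precursor pixels at E10 did not share this profile. In replicate 1 the sarcomere list was at 2173 CPM against 1071 CPM (2.03-fold, 1.69 to 2.41), with 0 counts of Myh3, and in replicate 3 it was at 244 CPM (2 counts) against 831 CPM. Beside the value of replicate 1, the heart list was at 498 CPM against 187 CPM (2.66-fold, 1.79 to 3.81), with 15 counts of Myl7, and its part in the result was not tested. The 3 pixels of replicate 1 held 5, 2 and 2 counts of the rule genes, and the pair of neighbouring pixels with 49 and 70 sarcomere counts held the 6 counts of Myod1 in these pixels. The single pixel of replicate 3 held 2 counts of Myod1 and 4 of Pax3, at 8201 counts in total. The myoblast surface and fusion list was lower in the precursor pixels of replicate 1, at 796 CPM (48 counts, 2 of them Cdh15) against 1091 CPM (0.730-fold, 0.538 to 0.968). The list of determination and differentiation factors, which holds none of the rule genes, was at 448 against 189 CPM in replicate 1 (27 counts, 2.37-fold, 1.56 to 3.45). In replicate 3 it had 2 counts (1.49-fold, 0.180 to 5.38). The dermomyotome list was at 0.826-fold (0.356 to 1.63) in replicate 1 and 3.19-fold (0.868 to 8.18) in replicate 3. At E10 the label of muscle precursors thus rests mostly on the rule genes, which chose the pixels, with few other counts behind it.

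**Figure D4:**
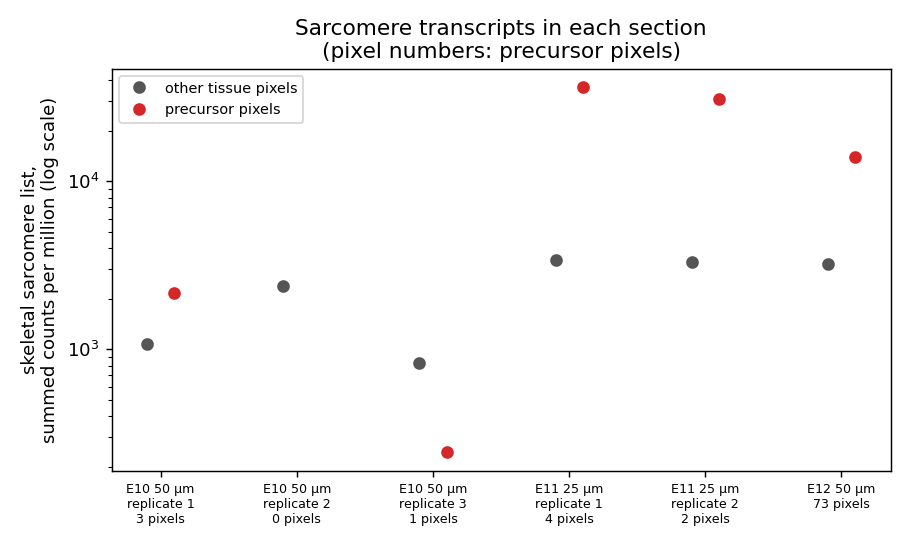
Summed level of the skeletal sarcomere list in each section (log axis, CPM) for precursor pixels (red) and other tissue pixels (grey), with the number of precursor pixels under each section. The red point lies above the grey one in E10 replicate 1, both E11 sections and E12, and below it in E10 replicate 3, while E10 replicate 2 has no precursor pixel.

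Across sections, summed counts of precursor and other pixels were compared with edgeR's quasi-likelihood test, with the section as a block and the 4 rule genes left out. E10 replicate 2 could not enter, so 5 sections were used, 1 of them with a single precursor pixel. At an adjusted p (Benjamini-Hochberg) under 0.05, 51 of 11904 genes rose in precursor pixels (0.428%) and 19 fell (0.16%). Of 24 sarcomere genes tested, 16 rose and none fell, with a median log2 fold change of 2.16 against -0.35 over all genes. Without E12, which holds most of the pixels, 20 genes rose and 7 fell, 24 of these 27 were among the calls with all sections, and 12 of 24 sarcomere genes rose. DESeq2 called 38 genes higher and 5 lower, scaling by total count alone called 87 higher and 28 lower, and without the section block 1 gene passed.

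Myh3 had the largest log2 fold change among genes that rose, 5.43 (SE 0.567, adjusted p = 6.0e-16, edgeR), and was higher in 3 of 5 sections, the E11 and E12 sections, being absent from the E10 precursor pixels. Tnnc2 rose by 4.65 (SE 0.535, adjusted p = 3.0e-14, edgeR), Mylpf by 4.56 (SE 0.532, adjusted p = 4.2e-13, edgeR) and Neb by 4.24 (SE 0.566, adjusted p = 1.7e-10, edgeR), each higher in 4 of 5 sections. In E10 replicate 1 the precursor pixels held only 1 count of Tnnc2, 1 of Mylpf and 2 of Neb, and in replicate 3 they held 0 of each. In the other lists the genes that rose were Atp2a1 (3.24), Cdkn1a (3.12), Sln (3.75), Meox1 (2.21), Pax1 (1.87) and Vgll3 (1.87). Atp2a1, Cdkn1a and Sln were higher in 4 of 5 sections, Meox1 and Pax1 in 3 of 5. Vgll3 was higher in 2 and lower in 3 of the 5 sections. None of 10 determination and differentiation factors passed, with Mef2c at a log2 fold change of 1.66 (SE 0.470). March11, a membrane-bound ubiquitin ligase gene, was the only gene outside the lists that rose with the same sign in 5 of 5 sections (2.37, SE 0.508, adjusted p = 0.028, edgeR). It had 199 counts over all pixels compared, and 1 section gave a single precursor pixel of 8201 counts, so the shared sign is a weak check.

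Among genes that fell, 6 of 9 red cell genes and 2 of 3 liver genes passed, the latter 1 of 2 without E12. Hba-a1, an adult alpha globin, fell by 2.03 on the log2 scale (SE 0.322, adjusted p = 3.4e-07, edgeR) and Afp, the fetal liver protein alpha-fetoprotein, fell by 3.14 (SE 0.536, adjusted p = 3.2e-06, edgeR), each lower in 5 of 5 sections. Klf1, the erythroid transcription factor, fell by 2.996, and Msx1, a homeobox gene of undifferentiated limb and facial mesenchyme, fell by 2.85, again in 5 of 5. A precursor sum of 0 also counts as lower, so these section counts are a weak check for genes with few counts. The single precursor pixel of E10 replicate 3, with 8201 counts, held 0 counts of the liver list, which includes Afp. Gap43, a growth cone protein gene, fell by 1.94. Tbx20, Robo3, Fcgr3 and Slc6a9 also passed, but their fitted values rest on precursor sums at or near 0 and are not given as sizes.

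Of the 51 genes that rose, 34 were matched to a RefSeq promoter. In the 250 bases before the start, 26 of these 34 held a CANNTG (76.5%) and 14 a CAGCTG (41.2%), against 66.0% and 12.8% of all genes with a promoter. The motif was searched after these genes were known, and the counts are a description of the sequences.

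Whether the difference between precursor and other pixels changed from E10 to the later stages was tested as an interaction. With edgeR, 0 of 11904 genes passed (0.0%), 263 had an unadjusted p under 0.05 and the smallest adjusted p was 0.396. DESeq2 also gave 0. The values by section above therefore stand as descriptions of each section, and no gene was shown to differ in its contrast between stages.

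Tissue pixels that shared an edge with a precursor pixel, without passing the rule themselves, were compared with pixels at least 3 steps away. In this ring, 31 of 12210 genes rose (0.254%) and 38 fell (0.311%) by the same edgeR test. Myog was among the 31, but it is a rule gene, and both sets are limited by the rule to at most 1 count per pixel, so its value is a description: in E12 it had 18 counts in the ring (23.4 CPM) and 20 further away (4.45 CPM). Of 23 sarcomere genes tested 14 rose, among them Mylpf (3.51), Neb (3.12) and Acta1 (2.56). Ryr1 (2.75), Sln (2.55) and Cdkn1a (1.91) rose too. Of these named genes, Acta1, Ryr1 and Sln were higher in 4 of 5 sections, and Mylpf, Neb and Cdkn1a in 3 of 5.

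Of 8 dermomyotome and progenitor genes tested, 3 rose in the ring, and 1 of 6 without E12 and 1 of 9 without E11 replicate 1. Dmrt2 rose by 2.62 (SE 0.461, adjusted p = 2.5e-05, edgeR), Tcf15, the paraxis gene of the somite epithelium, by 2.19 (SE 0.435, adjusted p = 2.3e-04, edgeR), and Meox1 by 1.72, and of the differentiation factors Mef2c rose by 1.27. Dmrt2, Tcf15 and Mef2c were higher in 4 of 5 sections and Meox1 in 3 of 5. All 5 liver genes tested fell, with Apoa2 at -2.67 (SE 0.405, adjusted p = 7.9e-08, edgeR) and lower in 5 of 5 sections, as did 6 of 9 red cell genes. Here too a sum of 0 counts as lower, and E10 replicate 3 had only 4 ring pixels. The liver calls were 1 of 2 genes tested without E12 and 3 of 3 without E11 replicate 1, and the red cell calls were 2 of 9 without E10 replicate 3. Vtn, Rhd and Krt8 fell too, with log2 fold changes of -2.62, -2.51 and -2.46. Without E12, 29 genes passed, 21 of them among the calls with all sections, and 6 of 21 sarcomere genes rose, while 45 genes passed without E11 replicate 1. DESeq2 called 14 genes higher and 2 lower, scaling by total count alone called 50 higher and 28 lower, and without the section block 0 genes passed in edgeR, with 399 at an unadjusted p under 0.05.

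In E12 alone, 195 of 10612 genes were at least 2-fold higher in the ring (1.84%) and 478 were lower (4.5%), again with no account of counting error. The sarcomere level declined with distance from the precursor pixels, from 13922 CPM in them to 7191 CPM at 1 step, 3625 at 2, 2314 at 3, 1687 at 4 and 1405 at 5. It was higher again further out, at 5047 CPM at 8 steps and 6519 CPM at 9, where the heart list was at 2024 and 3027 CPM, against 331 CPM in the precursor pixels. Of the sarcomere list, Actc1 was at 133 CPM at 5 steps and 723 CPM at 9, so a high sum of the list is not particular to the precursor pixels. Myh3, in contrast, was at 562 CPM at 1 step, 56.0 at 5 and 41.6 at 9, and Neb was at 38.3 at 5 and 8.32 at 9. The sclerotome and cartilage list was at 1797 CPM in precursor pixels, at 2641 CPM at 1 step and at 871 CPM at 5 steps. Its highest summed level thus lay beside the precursor pixels and not in them. Not every gene of the list followed the sum, since Pax1 was at 104 CPM in the precursor pixels and 41.5 CPM at 1 step.

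**Figure D5:**
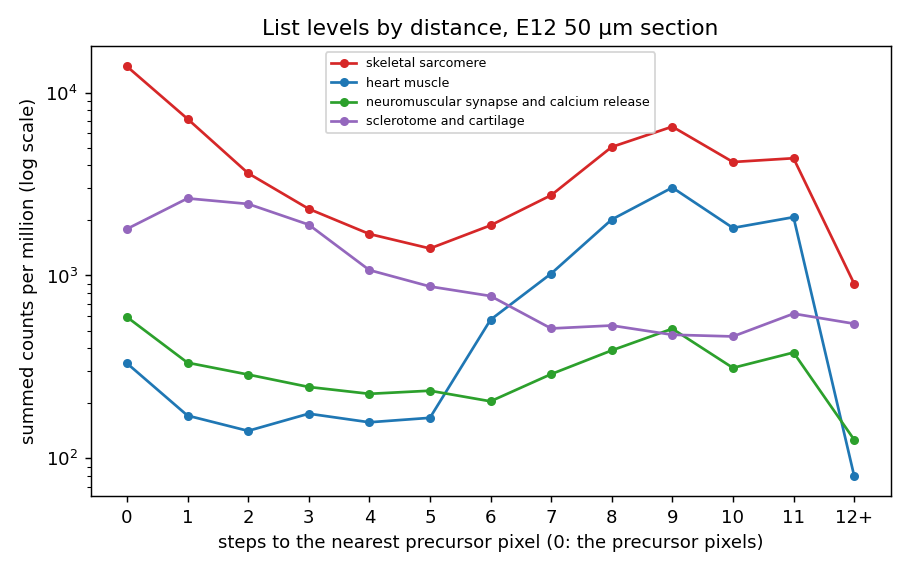
Summed CPM (log axis) of 4 gene lists against the number of steps to the nearest precursor pixel in the E12 50 µm section, with 0 for the precursor pixels and 12+ for all pixels further away. The sarcomere line falls from 13922 to 1405 over 5 steps and rises again to 6519 at 9 steps, where the heart line is at 3027.

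The genes whose levels followed the sum of the 4 rule genes most closely over tissue pixels were again muscle genes. As the mean Pearson r over the 6 sections, among 11794 genes, the first 5 were Myh3 (0.217), Mylpf (0.162), Tnnt1 (0.147), Cdkn1a (0.122) and Tpm2 (0.116). In E12 alone, among 14219 genes, they were Neb (0.406), Myh3 (0.389), Actc1 (0.357), Mylpf (0.336) and Ttn (0.335). The pixels share a library and its depth, and most hold no count of the rule genes, so these values are a description.

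Antibody tags had been counted in 2 of the E10 sections with precursor pixels, each tag library being matched to the transcript library whose title has the same stem. Of 22 antibodies, 0 differed by 2-fold in their share of tag counts in either section. The folds ran from 0.816 to 1.17 over the 3 pixels of replicate 1 and from 0.683 to 1.64 in the single pixel of replicate 3.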

How the data were processed

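Frozen sections were barcoded in tissue, and sequencing used Nextera XT libraries and paired reads on a HiSeq instrument, per the labels' protocols. The authors deposited whole-number counts per gene symbol and pixel, with no normalization, and a list of 2500 barcodes of 16 bases on a grid of 50 rows and 50 columns. The same barcodes serve every section by design, so 307 pixel names occur in all 6 sections. The submitters' processing notes name CASAVA 1.8.2 and GRCh38, a human build, although the symbols are those of mouse genes. The aligner, annotation, use of strand and removal of duplicates are not given in the sources used here, so positions come from GENCODE M21 (GRCm38) by symbol only, and genes with near-identical copies, such as the globins, may share reads.

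The precursor pixels and the gene lists were chosen with earlier results of these data known. Levels are counts per 1000000. Counts were summed over precursor pixels and over other tissue pixels of each section and tested with edgeR 4.0.16 (R 4.3.3; TMM factors, filterByExpr by class, robust quasi-likelihood F-test, section as block, Benjamini-Hochberg adjustment over all tested genes but the 4 rule genes, two-sided, threshold 0.05). Sections are the replicates and pixels are not. The section block pairs the 2 sums of 1 section by construction. The ring test used the same fit with all genes, though no p is given for rule genes. The scripts were tested on simulated data. DESeq2 1.42.0 was an alternative.

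E12 has 1 section, so its values carry 95% Poisson or conditional binomial intervals, which cover counting error only. A side with no count was set to 3 counts. The 2-fold rule with 50 counts, the links of 4 steps, the comparison with liver-rich pixels and the description of groups were chosen after seeing the data. Genes were named by a rule: of each list, up to 4 called genes with the largest change in each direction, and outside the lists up to 10 in each direction (6 for the ring) with the same sign in every section and 50 counts. Other named genes are list members or were chosen after their values were seen. Alternatives covered the scaling, the filter, the rule's minimum (1 or 3 counts), the tissue threshold (0.05 or 0.2), deep pixels only, and leaving out each section. Promoters are from RefSeq (GRCm38.p6).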

Additional observations from a re-analysis of the deposited data

Results flagged for a closer look

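In all, 3 libraries that the comparisons did not use, made at a pixel width of 10 µm, held more summed counts of the 4 rule genes in their tissue pixels than the 3 counts allowed by a count of 0. E10 10 µm replicate 1 held 25 counts, of which 23 were Myf5, and 2 of its 2173 tissue pixels passed the same rule. E11 10 µm replicate 1 held 4 counts and replicate 2 held 6, with no pixel passing the rule in either. Since there is no control library without muscle, these counts were set only against that limit.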

How the results depend on the processing

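Without the replicate block, with the section not a term, 1 gene passed in precursor pixels (70 in the main test), 0 in the ring (69) and 1 in the stage difference (0). DESeq2 called 43 genes in precursor pixels and 16 in the ring. Scaling by total count alone called 115 in precursor pixels and 5 in the stage difference, and no filter on low counts called 150 in the ring. Requiring at least 3 rule counts gave 32 calls in precursor pixels, and at least 1 gave 20 in the ring and 4 in the stage difference. Leaving out each section in turn gave 27 to 98 calls in precursor pixels, 29 to 87 in the ring and 0 to 2 in the stage difference. The lowest were 27 without E12 in precursor pixels and 29 without E12 in the ring, where leaving out E11 replicate 1 gave 45. E10 replicate 2 gives no sums, so leaving it out changed nothing. In E12, counts of genes at least 2-fold higher and lower in precursor pixels were 163 and 386 with at least 1 rule count, and 748 were higher with at least 3. In the ring they were 123 and 137 with at least 1, and 344 and 926 with at least 3. The share of precursor pixels in E12 was 15.0% with at least 1 rule count, 1.63% with at least 3 and 1.67% after thinning to 2000 counts. With 8 neighbours, 67.1% of them had a precursor neighbour. Direction changed for Smpx in E12 (0.908-fold with at least 3 rule counts) and for Krt8 in the ring (log2 fold change 0.059 with at least 1). For 6 further genes with no count in the pixels of at least 3 rule counts, no fold could be given. The cause of these changes was not tested. The E10 precursor sums rest on 4 pixels, and few counts there limit what any test across sections can show.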
